A study of Mus musculus with 6 samples.

Results

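Bone morphogenetic protein (BMP) signalling and the Id genes were followed in mouse embryonic stem (ES) cells through 10 genes: the ligand Bmp4, the receptor Bmpr1a, the signal transducers Smad1 and Smad5, the inhibitory SMADs Smad6 and Smad7, and the target genes Id1, Id2, Id3 and Id4. They were chosen by name, as every gene probe whose name in the scanner tables was one of these 10, with earlier results of the same comparison known. Their differences between the genotypes are therefore a description, and each adjusted p states only where a probe stood in the fit over all probes. The rule found 14 probes of 10 genes among 39429 gene probes, which carry 30165 gene names, on the array. Of the 14, 12 were well above background on all 6 arrays and entered the fit, at least 1 for each gene. The second Bmp4 probe (A_55_P1959022) and the third Smad1 probe (A_55_P2029289) were not well above background on any array and give no level.

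The study compared 3 cultures of Zscan5b knockout ES cells with 3 cultures of wild type ES cells, each hybridised as Cy3-labelled total RNA to its own 1-colour Agilent array. The Zscan5b protein has zinc fingers and a SCAN domain. All cultures were held undifferentiated with leukemia inhibitory factor (LIF) on fibroblasts from mouse embryos that had been inactivated with mitomycin C, so that RNA of both cell types can reach an array. The submitters call the samples biological replicates, and where the deletion lies and whether the knockout cultures were separate clones are not given in the sources used here. The knockout arrays shared 1 slide and scan and the wild type arrays another, so slide and genotype cannot be told apart in any value below.

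Between 64.3% and 70.4% of the gene probes were well above background on each array, with a 75th percentile of processed signal from 852 to 1028. Log2 differences between a pair of arrays had an SD of 0.33 to 0.40 among knockout arrays and of 0.51 to 0.64 among wild type arrays. The probe of Zscan5b read -1.32 ± 0.29 (log2 fold change ± SE, n = 3 per group, limma adjusted p = 0.107) and stayed well above background on all 6 arrays. It was called with array weights (0.0482) and without wild type replicate 2 (0.0416), and read -0.59 under normexp (0.108). The place of the deletion is not known here, and a probe outside the deleted part would not check the labels. All 16 listed ES cell markers, among them Pou5f1, Nanog and Sox2, were well above background on all 6 arrays. Of these 16, 8 were higher and 8 lower in the knockout by sign (median -0.0037), and 0 were called by limma. An unadjusted p below 0.05 was found for 3 of them, against 21.9% of all tested probes. Pou5f1, which encodes OCT4, gave -0.47 ± 0.10 and the pluripotency factor Nanog 0.66 ± 0.22 (limma adjusted p = 0.104 and 0.175). The knockout arrays all lay below the wild type arrays in Pou5f1 and above them in Nanog, as in 15.4% and 13.7% of all tested probes. Without wild type replicate 2 Pou5f1 was called lower (limma adjusted p = 0.0499), as were 1154 of all probes. Of 32 fibroblast markers 31 were well above background on all 6 arrays, and 0 were called by limma. Of these 31, 7 were lower at an unadjusted p below 0.05, against 21.9% of all tested probes in either direction. The intermediate filament gene Vim gave -0.74 ± 0.18 and the collagen chaperone gene Serpinh1 -0.65 ± 0.13 (limma adjusted p = 0.121 and 0.0961). Over the 31 tested fibroblast markers the mean centred log2 signal was -0.62, -0.19 and -0.51 in knockout replicates 1, 2 and 3, against -0.61, 1.05 and 0.88 in wild type replicates 1, 2 and 3. In this mean wild type replicates 2 and 3 stood apart, and wild type replicate 1 read like the knockout arrays. Single markers differed from it. Against wild type replicate 1 alone, a setting chosen after seeing the data, Vim gave -0.52 and Serpinh1 -0.74. The median of the 31 markers was 0.21 there, with 22 positive. The knockout arrays all lay below the wild type arrays in 3 of the 31, Vim and Serpinh1 among them, against 15.4% of all tested probes. In such a mixture, fewer fibroblasts and less fibroblast RNA per cell cannot be told apart.

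BMP ligands bind pairs of type I and type II serine/threonine kinase receptors, which phosphorylate SMAD1 and SMAD5. With SMAD4 these enter the nucleus and switch on target genes, among which Id genes and the feedback inhibitors Smad6 and Smad7 are the best known. Id proteins carry a helix-loop-helix without a DNA-binding region and hold back basic helix-loop-helix (bHLH) factors by pairing with their E protein partners. In mouse ES cells BMP4 acts beside LIF to sustain self-renewal through Id genes, and serum and fibroblasts are sources of BMP.

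Promoters were available for 8 of the 10 genes, all but Id1 and Smad7. Those of Id2, Id3 and Id4 are shown because the signals of Id2 and Id4 separated the genotypes and that of Id3 varied most among the wild type arrays. Each runs 5′ to 3′ on the gene's strand from 250 bases before to 50 bases after the start of transcription, from RefSeq on GRCm38.p6. Capitals mark GGCGCC, a GC-rich sequence bound by SMAD1 and SMAD5, and CAGAC, the core of the classical SMAD-binding element, both searched on both strands. The promoter of Id2 lies at chr12:25096043-25096342 on the minus strand, that of Id3 at chr4:136143572-136143871 on the plus strand and that of Id4 at chr13:48260866-48261165 on the plus strand.
Id2: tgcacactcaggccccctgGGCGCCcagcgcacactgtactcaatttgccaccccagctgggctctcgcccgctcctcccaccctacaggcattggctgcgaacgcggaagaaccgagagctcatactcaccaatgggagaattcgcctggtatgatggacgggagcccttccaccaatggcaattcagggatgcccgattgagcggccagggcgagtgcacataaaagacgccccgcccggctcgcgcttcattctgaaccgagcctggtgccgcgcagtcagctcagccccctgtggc
Id3: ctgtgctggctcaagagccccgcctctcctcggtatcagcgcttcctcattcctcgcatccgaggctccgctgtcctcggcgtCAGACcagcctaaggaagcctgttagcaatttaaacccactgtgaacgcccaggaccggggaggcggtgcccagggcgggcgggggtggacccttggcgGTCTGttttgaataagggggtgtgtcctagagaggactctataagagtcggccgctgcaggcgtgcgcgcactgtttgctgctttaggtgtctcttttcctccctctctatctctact
Id4: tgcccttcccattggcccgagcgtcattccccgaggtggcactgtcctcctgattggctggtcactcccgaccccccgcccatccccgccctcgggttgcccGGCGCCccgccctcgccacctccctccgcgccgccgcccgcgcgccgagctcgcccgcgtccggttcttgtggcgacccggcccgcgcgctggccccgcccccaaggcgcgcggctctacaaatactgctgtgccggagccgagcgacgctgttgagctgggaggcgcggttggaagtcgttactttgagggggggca

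GGCGCC occurred once in the Id2 window (first base at position -231 from the start of transcription) and once in that of Id4 (-148). The Id3 window held CAGAC at -167 and, on the other strand, at -68. Among the windows not shown, GGCGCC also occurred in that of Bmpr1a (-198) and in Smad5 windows (23 and -19). A further Smad5 window held CAGAC (-21), and the windows of Bmp4, Smad1 and Smad6 held neither. Bmpr1a and Smad5, whose windows also held GGCGCC, had log2 fold changes of 0.030 and -0.084. Any link between these letters and the signals was not tested. Of 32851 promoters of this length, 11.9% held GGCGCC and 49.6% held CAGAC. These matches describe letters in the windows and show no binding.

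Id2 was the member that passed the test, at 1.94-fold higher signal in the knockout. Its probe (A_52_P240542, chromosome 12, 25778904 to 25778963 in the array design, whose build the files do not name and which does not share the positions of GRCm38.p6) read 0.64, 0.43 and 0.48 in knockout replicates 1, 2 and 3, against -0.41, -0.48 and -0.44 in wild type replicates 1, 2 and 3. All such values are log2 signals after subtraction of the array's 75th percentile. The wild type arrays lay within 0.067 of each other, and the lowest knockout array stood 0.84 above the highest wild type array. The log2 fold change, knockout minus wild type as everywhere below, was 0.96 ± 0.10 (SE, n = 3 per group, 95% interval 0.71 to 1.21, limma adjusted p = 0.0373). The interval is that of 1 probe, without adjustment for the number of probes.

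The size of the Id2 difference ran from 0.88 to 1.00 over 16 alternatives, whereas its call was often lost. Another detection filter, variance prior or the replicate number as a block cannot change this size, which was 0.96 in those settings. Id2 stayed called under a shift to the median, quantile normalization, array weights, the authors' deposited log2 values, and without wild type replicate 1 or 2. It was lost without knockout replicate 1, 2 or 3 or wild type replicate 3 (adjusted p = 0.116, 0.198, 0.144 and 0.116 in limma). The call was also lost under normexp (0.0734), without a detection filter (0.0853), with detection on all arrays (0.0510), with a trended and robust prior (0.0657) and with the replicate number as a block (0.183). Adjusted p over the alternatives ran from 0.0292 to 0.198. Against wild type replicate 1 alone, a setting chosen after seeing the data, the log2 fold change was 0.93. That wild type array had a mean fibroblast marker level like that of the knockout arrays. The part of the fibroblast level in the Id2 signal was not tested.

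Id4 was also brighter on every knockout array but did not pass. Its probe (A_52_P449871, chromosome 13, 48358668 to 48358727) read -1.51, -1.62 and -1.42 in knockout replicates 1, 2 and 3 and -2.09, -1.91 and -3.07 in wild type replicates 1, 2 and 3. The groups did not overlap, and wild type replicate 3 lay farthest below. The log2 fold change was 0.83 ± 0.30 (SE, n = 3 per group, limma adjusted p = 0.198), and without wild type replicate 3 it was 0.48.

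Id1 and Id3, classical readouts of BMP signalling in ES cells, did not pass the test and varied more among the wild type arrays than among the knockout arrays. Id1 (A_55_P2052563, chromosome 2, 152563083 to 152563142) read 0.04, -0.52 and -0.21 in knockout replicates 1, 2 and 3, against 0.00, -1.05 and 0.26 in wild type replicates 1, 2 and 3. Wild type replicate 2 was the lowest of the 6 arrays and wild type replicate 3 the highest, so that the knockout values fell between them. The log2 fold change of Id1 was 0.035 ± 0.356 (limma adjusted p = 0.961, 95% interval -0.83 to 0.90), and its sign changed under a shift to the median (-0.019), with array weights (-0.30) and without wild type replicate 2 (-0.36).

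**Figure D1:**
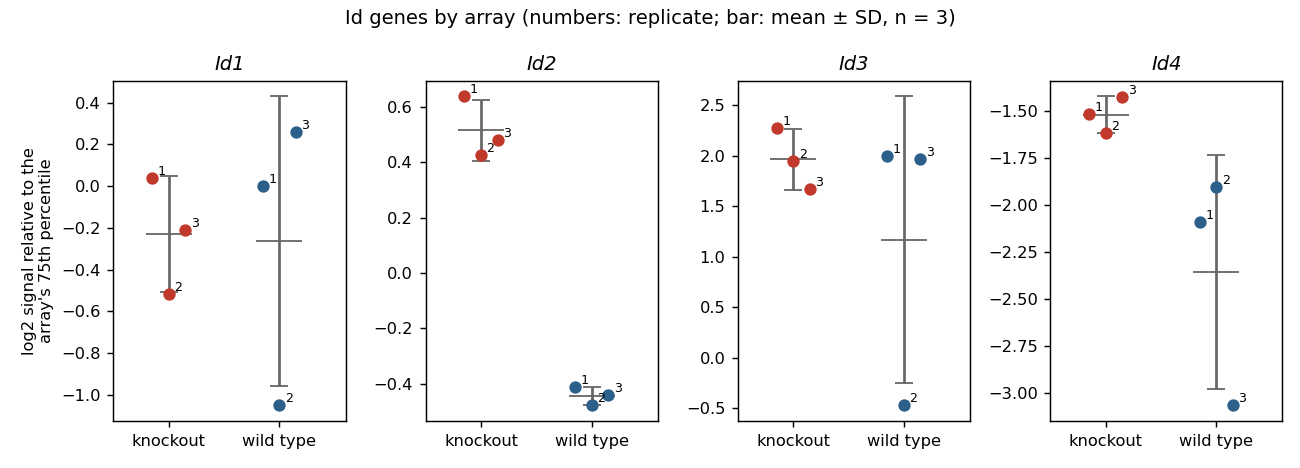
Log2 signal of Id1, Id2, Id3 and Id4 above the 75th percentile of the same array, for the knockout (left) and wild type (right) arrays, with the mean and SD of 3 arrays and a separate scale in each panel. The Id2 groups stand 0.84 apart, whereas wild type replicate 2 alone lies far below the other arrays in Id3.

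Id3 showed the same low array on a wider scale. Its single probe read 2.28, 1.95 and 1.67 in knockout replicates 1, 2 and 3, against 2.00, -0.47 and 1.97 in wild type replicates 1, 2 and 3. Wild type replicate 2 lay 2.46 below the mean of the other wild type arrays, and those lay among the knockout arrays. Of 26655 tested probes, 361 (1.36%) spread as widely over the wild type arrays as Id3 did, at a range of 2.48 against a median range of 0.413. The fitted log2 fold change of 0.80 ± 0.68 (limma adjusted p = 0.499, 95% interval -0.84 to 2.44) rested on that array and was -0.023 without it. The fibroblast marker level of wild type replicate 2 (1.05) was near that of wild type replicate 3 (0.88), where Id3 was high, and the part of that level in the low Id3 signal was not tested.

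The Id3 probe is shown because every Id3 value rests on it. Its target positions (A_51_P380178, chromosome 4, 135700075 to 135700249, plus strand) span 175 bases for a probe of 60, so the probe skips 115 bases of the genome, and it has 1 reading frame without a stop. The Smad1 probe A_55_P2029285 (chromosome 8, 81880234 to 81880293, minus strand), printed beside it, also has 1 open frame and is the Smad1 probe whose groups did not overlap.
Id3 probe: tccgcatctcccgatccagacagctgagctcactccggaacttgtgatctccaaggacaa
Smad1 probe: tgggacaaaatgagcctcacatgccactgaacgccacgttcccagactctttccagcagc

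Bmp4, the ligand that sustains ES cells together with LIF, read lower on average in the knockout without passing the test. The measured probe (A_55_P2154387, chromosome 14, 47003391 to 47003450) read -0.40, -1.06 and -0.84 in knockout replicates 1, 2 and 3, against -0.31, -0.48 and 0.82 in wild type replicates 1, 2 and 3. Wild type replicate 3 stood 1.21 above the mean of the other wild type arrays, and knockout replicate 1 lay above wild type replicate 2. The log2 fold change was -0.78 ± 0.37 (SE, n = 3 per group, limma adjusted p = 0.272) and -0.37 without wild type replicate 3.

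Bmpr1a, a type I receptor of BMP ligands, overlapped between the groups. It read 0.85, 0.86 and 0.69 in knockout replicates 1, 2 and 3 and 0.77, 0.91 and 0.63 in wild type replicates 1, 2 and 3 (A_52_P17146, chromosome 14, 35224339 to 35224398). Its log2 fold change was 0.030 ± 0.118 (limma adjusted p = 0.896), with a 95% interval of -0.26 to 0.32, and the sign changed under a shift to the median and under normexp.

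The transducers Smad1 and Smad5, which carry the signal from the receptor to the nucleus, differed little. The brighter Smad1 probe (A_52_P65108, chromosome 8, 81863015 to 81863074) read -1.73, -1.92 and -1.67 in knockout replicates 1, 2 and 3, against -1.80, -1.84 and -1.85 in wild type replicates 1, 2 and 3. Its log2 fold change was 0.058 ± 0.107 (limma adjusted p = 0.766, 95% interval -0.20 to 0.32), and it was -0.0013 under quantile normalization. The dimmer Smad1 probe, shown above, read -3.53, -3.76 and -3.75 in the knockout and -3.89, -3.92 and -4.11 in wild type. Those groups did not overlap, at 0.29 ± 0.12 (limma adjusted p = 0.228), so the measured Smad1 probes gave different sizes.

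Smad5 was the member whose knockout arrays all lay below the wild type arrays, by a gap of 0.0036. Its brighter probe (A_55_P2107972, chromosome 13, 56843578 to 56843637) read 1.43, 1.31 and 1.46 in knockout replicates 1, 2 and 3 and 1.52, 1.47 and 1.46 in wild type replicates 1, 2 and 3. The log2 fold change was -0.084 ± 0.095 (limma adjusted p = 0.614, 95% interval -0.31 to 0.15). The other Smad5 probe (A_65_P06572) read -2.83, -2.98 and -2.94 in the knockout and -2.51, -3.26 and -2.68 in wild type, and its groups overlapped (-0.096 ± 0.205, limma adjusted p = 0.797).

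The inhibitory SMADs, feedback inhibitors that BMP signalling itself induces, did not move together. Smad6 (A_55_P2129658, chromosome 9, 63800980 to 63801039) read -2.16, -1.95 and -2.28 in knockout replicates 1, 2 and 3, against -2.60, -2.23 and -2.78 in wild type replicates 1, 2 and 3. The groups overlapped by 1 pair of arrays, knockout replicate 3 lying just below wild type replicate 2, at a log2 fold change of 0.40 ± 0.17 (limma adjusted p = 0.236). Smad7 (A_51_P403636, chromosome 18) read 0.92, 1.02 and 0.75 in the knockout and 1.31, 0.63 and 0.76 in wild type. All knockout arrays of Smad7 lay inside the wild type range. The log2 fold change was -0.0038 ± 0.198 (limma adjusted p = 0.992, 95% interval -0.48 to 0.48), and its sign changed under quantile normalization, with the authors' deposited values and with array weights.

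**Figure D2:**
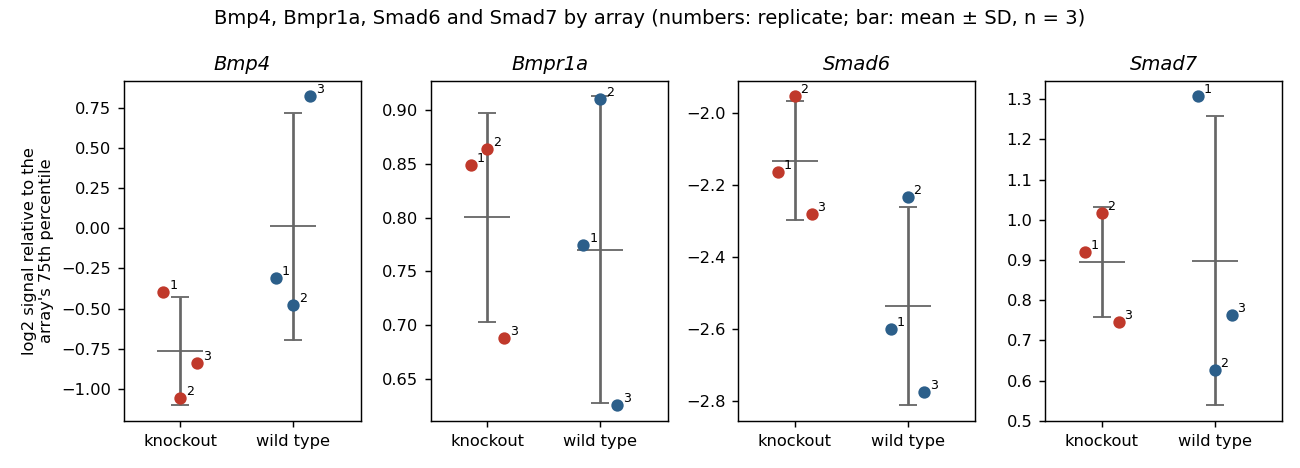
Log2 signal of Bmp4, Bmpr1a, Smad6 and Smad7 above the 75th percentile of the same array, for the knockout (left) and wild type (right) arrays, with the mean and SD of 3 arrays and a separate scale in each panel. Wild type replicate 3 stands above all other arrays in Bmp4, and the groups overlap in all 4 panels.

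Of the 12 tested probes of these genes, 1 was called higher, 0 were called lower and 11 were not called by limma over all probes. Over all 26655 tested probes 0.469% were called in either direction and 0.124% were called higher. An unadjusted p below 0.05 was found for 3 of the 12 (Id2, Id4 and the dimmer Smad1 probe), against 21.9% of all tested probes. Every knockout array read above every wild type array in the same 3 probes, as in 13.7% of all tested probes. They lay below them in 1 probe (Smad5), as in 15.4% of all tested probes. Since the members were chosen with this comparison known, nothing is read from these shares. By the brightest probe of each gene the median log2 fold change of the 10 genes was 0.046, against -0.028 over 20440 genes. In 7 of the 10 genes the wild type arrays had the larger SD, with medians of 0.134 in the knockout and 0.318 in wild type. Over all tested probes the median SD was 0.128 in the knockout and 0.217 in wild type.

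**Figure D3:**
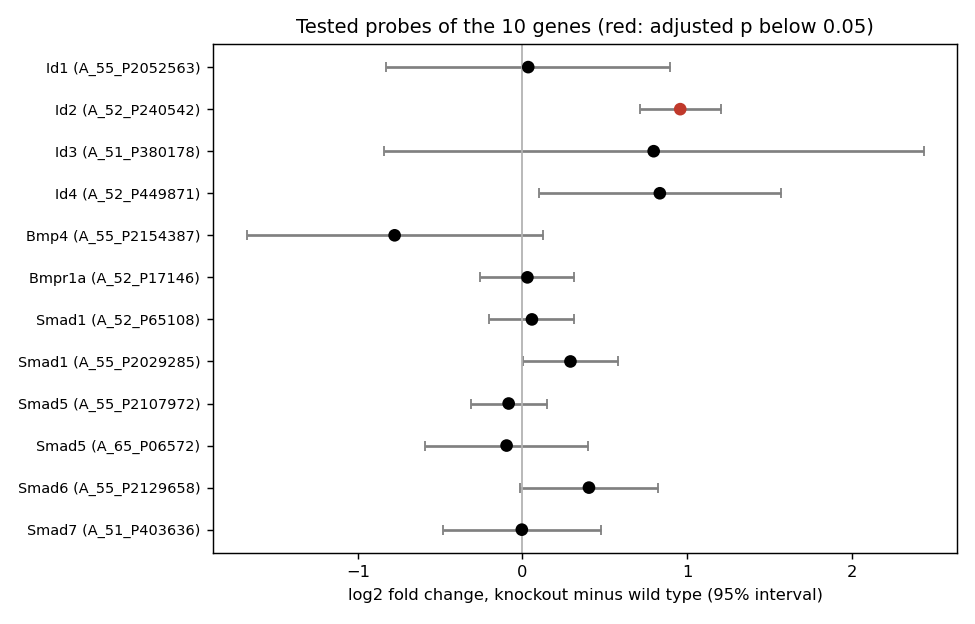
Log2 fold change, knockout minus wild type, of the 12 tested probes (points) with the 95% interval of each probe in the limma fit, unadjusted for the number of probes (bars). Id2, in red, passed at an adjusted p of 0.0373, and the widest interval belongs to Id3, from -0.84 to 2.44.

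The rest of the pathway was described from lists of its parts. Leaving out the 10 members, 60 of the 74 listed genes had a tested probe. Their log2 fold changes were positive in 37 and negative in 23, with a median of 0.16. By limma over all probes 0 were called higher, 1 was called lower and 59 were not called. The lower call was Myod1, whose probe entered the fit only through the wild type arrays and gives no knockout level. At an unadjusted p below 0.05, 10 were higher and 6 lower (Myod1 among them), against 21.9% of all tested probes in either direction. Without wild type replicate 2, 5 were called higher and 3 lower, when 1412 and 1154 of all probes were. Without wild type replicate 1 the numbers were 0 and 5, against 202 and 439 of all probes.

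Among BMP ligands (10 tested, 4 positive, 0 called by limma, 2 higher and 1 lower at an unadjusted p below 0.05) values ran from -1.49, for a probe below background in the knockout, to 1.23. Over all tested probes 21.9% had such a p in either direction. Bmp7, a ligand needed for kidney and eye development, read 1.51, 1.97 and 1.92 in knockout replicates 1, 2 and 3, against 0.47, 1.58 and -0.35 in wild type replicates 1, 2 and 3. Wild type replicate 2 fell among the knockout arrays, and the log2 fold change of Bmp7 was 1.23 ± 0.47 (limma adjusted p = 0.210), or 1.74 and called without wild type replicate 2 (adjusted p = 0.0381). Bmp6, a ligand known for controlling hepcidin in the liver, gave 0.73 ± 0.28 (limma adjusted p = 0.210). Bmp10, best known from the heart, read -6.93, -6.21 and -6.69 in knockout replicates 1, 2 and 3, against -5.34, -4.91 and -5.09 in wild type replicates 1, 2 and 3. No knockout array was well above background and all 3 wild type arrays were, so the knockout values only bound the level and no fold is given. The probe, the 1 lower ligand counted above, entered the fit only through the wild type arrays. It is not tested where detection on all arrays is required. The fitted log2 difference was -1.49 (limma adjusted p = 0.0572) and shrank to -0.29 under normexp (0.170). Bmp10 was called under a shift to the median (0.0419) and without wild type replicate 1 (0.0414) or wild type replicate 2 (0.0388). With no knockout level measured, these calls give no size of the difference.

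Receptors and co-receptors (11 tested, 9 positive, median 0.12, 0 called by limma, 1 higher at an unadjusted p below 0.05) ran from -0.71 to 0.35. By the brightest probe 46.3% of all genes were positive, and 21.9% of all tested probes had such a p in either direction. The type II receptor Bmpr2 gave 0.11 ± 0.15 (limma adjusted p = 0.667) and the type I receptor Acvr1 0.22 ± 0.13 (0.346). Eng, the co-receptor endoglin, read -0.37, -0.40 and -0.59 in the knockout, against -0.86, -0.61 and -0.85 in wild type. Its groups did not overlap, with the knockout above as in 13.7% of all tested probes. The log2 fold change of Eng was 0.32 ± 0.12 (limma adjusted p = 0.211). Smad4, the partner shared by all receptor-regulated SMADs, gave -0.037 ± 0.108 at its brighter probe and 0.098 ± 0.106 at the other (limma adjusted p = 0.857 and 0.595). Of the 4 listed transducers 3 were tested, with 1 positive, a median of -0.037, 0 called by limma and 0 at an unadjusted p below 0.05. Smad9, the third BMP transducer, was not well above background on any array.

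Of the inhibitors that act inside the cell 7 were tested and 6 were positive, against 46.3% of all genes. Their median was 0.31 and lay between 0.23 and 0.45 over the alternatives. By limma 0 were called and 2 were positive at an unadjusted p below 0.05, against 21.9% of all tested probes in either direction. Both Smad6 and Smad7 belong to this list. Skil, a repressor of SMAD-driven transcription, read 1.53, 1.72 and 1.65 in knockout replicates 1, 2 and 3, against 1.25, 1.11 and 1.08 in wild type replicates 1, 2 and 3. The groups did not overlap at this probe (0.49 ± 0.11, limma adjusted p = 0.103) or at the other (0.69 ± 0.12, 0.0711). Smurf1, a ubiquitin ligase that targets SMADs, gave 0.48 ± 0.13 (limma adjusted p = 0.138), also without overlap. The knockout arrays all lay above the wild type arrays in 3 of the 7 genes, against 13.7% of all tested probes. Nothing is read from these shares. Bambi, a decoy receptor, was not well above background on any array.

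Extracellular antagonists, which trap the ligands, split in both directions (11 tested, 4 positive, 7 negative, 0 called by limma, 2 higher and 1 lower at an unadjusted p below 0.05). Over all tested probes 21.9% had a p this low in either direction. Nog, which encodes noggin, read -3.43, -3.42 and -3.17 in knockout replicates 1, 2 and 3, against -4.22, -4.03 and -3.76 in wild type replicates 1, 2 and 3. All knockout arrays were above all wild type arrays, as in 13.7% of all tested probes. The log2 fold change of Nog was 0.66 ± 0.15 (limma adjusted p = 0.112). Fstl1, a follistatin-like secreted protein of mesenchymal cells, lay below on all knockout arrays, as in 15.4% of all tested probes. It gave -0.55 ± 0.16 (limma adjusted p = 0.156), while the activin and BMP antagonist Fst gave -0.30 ± 0.26 and overlapped between the groups. The median of this list was -0.30 and stayed negative, from -0.49 to -0.052, in the alternatives other than wild type replicate 1 alone. Against that array, a setting chosen after seeing the data, it was 0.37. The median of the fibroblast markers was -0.85 over 31 genes, of which 1 was positive. It was positive only against wild type replicate 1 alone (0.21) and ran from -1.34 to -0.57 in the other alternatives. The part of the fibroblast level in the antagonists' values was not tested.

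The list of BMP target genes (16 tested) was positive in 15 and called in 1, which was Id2. The median was 0.26, and over the alternatives it lay between 0.21 and 0.33 with 12 to 16 genes positive. Without the members 10 of 10 genes were positive, from 0.059 to 0.85, with 0 called by limma, 1 at an unadjusted p below 0.05 and 4 whose knockout arrays all lay above the wild type arrays. By the brightest probe 46.3% of all genes were positive, and 13.7% of all tested probes had the knockout arrays above. The list was chosen with earlier results of these data known and no set test was run, so nothing is read from these shares. Gata2, a transcription factor of blood and trophoblast that was picked once its values were known, was the highest of these at 0.85 ± 0.27 (limma adjusted p = 0.167). Dusp9, a phosphatase through which BMP restrains ERK in mouse ES cells, picked in the same way, gave 0.26 ± 0.12 (limma adjusted p = 0.267).

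The bHLH factors and E proteins that Id proteins bind or oppose (14 tested, 6 positive, median -0.11) held 1 called gene. Over all tested probes 0.469% were called in either direction. Of the 14, 2 were higher and 4 lower at an unadjusted p below 0.05, against 21.9% of all tested probes. The knockout arrays all lay above the wild type arrays in 3 and below them in 4, against 13.7% and 15.4% of all tested probes. Myod1, the muscle determination factor, was called lower (limma adjusted p = 0.0361). It read -8.16, -8.00 and -7.98 in knockout replicates 1, 2 and 3, against -6.74, -6.88 and -6.99 in wild type replicates 1, 2 and 3. No knockout array was well above background, so the probe entered the fit only through the wild type arrays, no fold is given, and it is not tested where detection on all arrays is required. The call was lost under normexp, where the log2 difference was -0.15 (adjusted p = 0.339), and without wild type replicate 3 or any 1 of the knockout arrays (0.101 to 0.198). It was also lost without a detection filter (0.0834), with the trended and robust prior (0.104) and with the replicate block (0.183). The log2 difference was -2.04 with the authors' deposited values and -1.31 against wild type replicate 1 alone. Over all its alternatives the adjusted p ran from 0.0264 to 0.339.

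**Figure D4:**
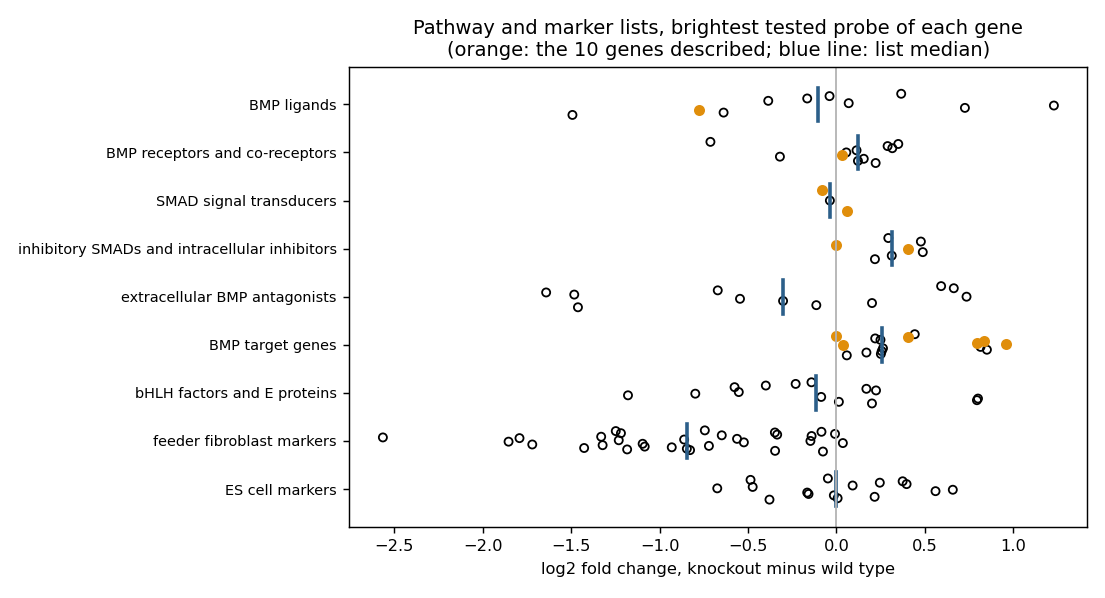
Log2 fold change, knockout minus wild type, of the brightest tested probe of each gene in the pathway and marker lists (points), with the 10 genes described here in orange and each list's median as a blue line. Target genes lie mostly right of 0 (median 0.26) and fibroblast markers mostly left of it (median -0.85).

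Genes whose signal over the 6 arrays was closest to that of Id1 and Id2 were sought among 14162 genes well above background on all arrays, by the root mean square difference of log2 signals centred per probe. Closest to Id2 was Hjurp, the chaperone of the centromeric histone CENP-A, at a difference of 0.035. It was followed by Spire2, an actin nucleator (0.069), Adgrg5, an adhesion receptor (0.084), Hsdl1 (0.116) and Hs6st1, a heparan sulfate sulfotransferase (0.126). Closest to Id1 were Notch4, a Notch receptor (0.108), Slc25a10, a mitochondrial dicarboxylate carrier (0.109), Dhrsx (0.120), Prelid3a (0.121) and the repressor Bcl6b (0.123). These are likenesses over 6 arrays that share 2 slides.

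**Figure D5:**
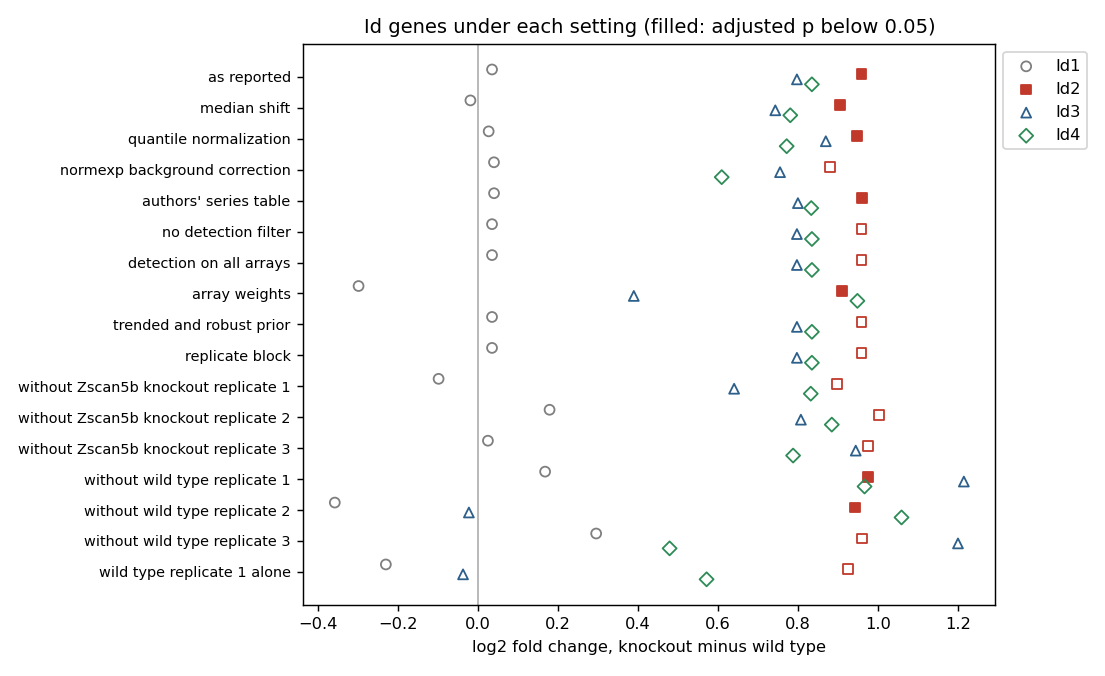
Log2 fold change, knockout minus wild type, of Id1, Id2, Id3 and Id4 as reported and under each of 16 alternatives (filled symbols passed at an adjusted p below 0.05). Id2 stays between 0.88 and 1.00, whereas Id3 lies at -0.023 without wild type replicate 2 and at 1.22 without wild type replicate 1.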

How the data were processed

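Total RNA of 3 knockout and 3 wild type cultures was measured on 1-colour Agilent arrays, and samples were grouped by title. The deposited scanner tables hold linear spot intensity. Background subtraction with spatial detrending, multiplicative detrending and surrogate values for dim signals were done in Feature Extraction (10.7.3.1 per the file headers, 10.3.1.1 per the submitters' processing notes). The authors' deposited series table holds log2 values with each probe's median at 0 (largest deviation 0.005) and column medians of -0.02, 0.02 and 0.03 for knockout replicates 1 to 3 and 0.02, -0.01 and -0.07 for wild type replicates 1 to 3. How its columns were scaled is unknown, and it served as an alternative (r of 0.998 to 0.999 across probes with the centred scanner values of the same array).

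Control spots and outlier spots were left out, log2 processed signals were averaged per probe, and arrays were scaled by subtracting the 75th percentile. Probes well above background on at least 3 of 6 arrays were tested (26655, 67.6%) in limma 3.58.1 (R 4.3.3; lmFit, then eBayes, two-sided, Benjamini-Hochberg adjustment over all tested probes, threshold 0.05). Names were updated through RefSeq accessions and symbols (26761 probes by accession, 3814 already current, 639 by synonym). A gene's value is that of its brightest tested probe, and no level is compared between probes. On simulated data for this comparison with 26604 probes, 43 of 100 changes of log2 1 and 80 of 100 of log2 2 were called. False calls numbered 10 among 26404 unchanged probes. Slide and genotype coincide in the real arrays, so these counts do not give the false calls of the real comparison.

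The members and lists were chosen with earlier results of these data known. Named genes were the members, Zscan5b, 8 fixed pathway genes, each list's called genes or else its 2 tested genes with the smallest p, and the 5 genes closest to Id1 and to Id2. Gata2 and Dusp9 lie outside this rule and were chosen after their values were seen. Alternatives were other scalings, normexp, detection filters, array weights, another variance prior, a replicate block and leaving out each array. No set test was run.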

Additional observations from a re-analysis of the deposited data

How the results depend on the processing

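Over all probes the counts of calls, 33 higher and 92 lower, depended on the setting: 54 and 178 under a shift to the median, 50 and 132 under quantile normalization, 335 and 336 with array weights, 33 and 88 with the authors' deposited values, and 0 and 0 under normexp (offset 50), without a detection filter, with detection on all arrays, with a trended and robust prior and with the replicate block. Leaving out 1 array gave 0 to 1412 higher and 0 to 1154 lower, the highest numbers without wild type replicate 2. Against wild type replicate 1 alone, an alternative chosen after seeing the data, they were 23 and 10. Of the 10 genes 1 probe was called higher, and 0 under normexp, without a filter, with detection on all arrays, with the trended and robust prior, with the replicate block and against wild type replicate 1 alone, with 0 to 1 when 1 array was left out. None of their probes was called lower in any of these settings. Of the other pathway genes 0 were called higher, 1 with array weights and 0 to 5 with 1 array left out. Lower calls numbered 1 (Myod1), then 2 under the median shift (Myod1 and Bmp10). The probes of both genes entered the fit only through the wild type arrays. Lower calls numbered 0 under normexp, without a filter, with detection on all arrays, with the trended and robust prior and with the replicate block. With 1 array left out they ran from 0 to 5.

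Log2 fold changes of 8 probes changed sign, none of them called. Bmpr1a read -0.024 under the median shift, -0.0059 under normexp, -0.0015 without knockout replicate 2 and -0.042 without wild type replicate 3 (-0.042 to 0.10 with 1 array left out). Id1 read -0.019 under the median shift, -0.30 with array weights, -0.10 without knockout replicate 1, -0.36 without wild type replicate 2 and -0.23 against wild type replicate 1 alone (-0.36 to 0.30 with 1 array left out). Id3 read -0.023 without wild type replicate 2 and -0.038 against wild type replicate 1 alone (-0.023 to 1.22 with 1 array left out). Smad1 read -0.0013 under quantile normalization and -0.0075 with array weights, and Smad4 read 0.058 under quantile normalization and -0.11 to 0.020 with 1 array left out, the positive value without wild type replicate 1. The dimmer Smad5 probe ran from -0.32 to 0.057 with 1 array left out, the positive value without wild type replicate 1. Smad7 read 0.025 under quantile normalization, 0.0033 with the authors' deposited values, 0.012 with array weights, 0.070 without knockout replicate 3 and 0.20 without wild type replicate 1 (-0.14 to 0.20 with 1 array left out), and Fst read 0.070 against wild type replicate 1 alone. The cause of these changes was not tested.

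Deviations from the group means correlated at 0.162, 0.232 and -0.144 across probes for replicate numbers 1, 2 and 3. Between arrays of unlike number the correlations ran from -0.317 to 0.21. The deviations of 3 arrays sum to 0 within a group, so these values cannot decide whether the numbers pair the samples. With the number as a block Id2 kept a log2 fold change of 0.96 at an adjusted p of 0.183. The number of arrays and the single probe per Id gene limit the precision.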
